A study of Homo sapiens with 8 samples.

Results

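The transcriptional coactivator YAP1, its paralog WWTR1 (also known as TAZ), 2 of the TEAD factors that carry them to DNA and 6 of their target genes were followed through RNA-seq of SUIT2, a human PDA cell line of epithelial type. These 10 genes (*YAP1*, *WWTR1*, *TEAD1*, *TEAD4*, *CCN1*, *CCN2*, *ANKRD1*, *AMOTL2*, *LATS2* and *AJUBA*) were chosen by name from the 25702 genes counted, through their NCBI gene numbers. *CCN1* and *CCN2* are the current names of *CYR61* and *CTGF*. All 10 were found in every library and all 10 passed the filter on low counts, which left 14333 genes to test.

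SUIT2 cells carried either a scramble shRNA (shScr, 4 libraries) or 1 of 2 independent shRNA constructs against *EN1* (shEN1 #1 and shEN1 #2, 2 libraries each), and the study used them to ask which transcripts depend on EN1, a homeobox transcription factor. Each library is bulk RNA from a single cell line, so that a change in the share of cells in a given state and a change in RNA per cell cannot be told apart. The labels do not say whether libraries of a group came from separate cultures, and the p-values below therefore measure only the spread between these libraries, which may be technical. The values are read counts per gene, shown as CPM, that is, scaled to a common library size after TMM normalization, which corrects for depth and RNA composition. The libraries held between 33423590 and 37810604 counts.

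YAP1 and WWTR1 are the nuclear effectors of the Hippo pathway. When the MST and LATS kinases are active they phosphorylate both coactivators, which are then held in the cytoplasm and degraded, and when the kinases are inactive the coactivators enter the nucleus and bind TEAD factors at promoters and enhancers. Among the genes they induce are secreted matricellular proteins (CCN1, CCN2) and negative regulators of YAP1 itself (LATS2, AMOTL2), and in PDA the pathway is known for a role in tumor growth.

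The targeted gene, *EN1*, was not lower under the shEN1 label. It measured 4.01 ± 1.06 CPM under the shScr label and 4.81 ± 2.37 CPM under the shEN1 label (SD, n = 4 each), with its lowest value, 1.35 CPM, in the library labelled shEN1 #2 replicate 1 and its highest, 6.70 CPM, in the other library of that construct. The second lowest value, 2.51 CPM, was in the library labelled shScr replicate 4. All libraries outside these low ones lay between 4.10 and 6.70 CPM. The log2 fold change was 0.26 (standard error 0.43, 95% interval -0.70 to 1.22, adjusted p of 1.00 from edgeR), and 0.48 for shEN1 #1 and -0.00022 for shEN1 #2 alone. The counts thus do not check the labels, so libraries go by their label here and every direction is one between labels. The library labelled shEN1 #2 replicate 1 also had the library labelled shScr replicate 4 as its nearest neighbour over all tested genes, with a root mean square (RMS) difference of 0.39 in log2 CPM, the smallest of 28 pairs. On the first principal component (44.4% of the variance) the former lay at 62.1, the latter at 59.2 and the other 6 between -27.6 and -9.15. On the second (17.5%), shScr replicate 3 (39.3) and, from the other label, shEN1 #1 replicate 1 (30.6) were highest. On its other side lay shScr replicate 1 (-29.4) and shEN1 #1 replicate 2 (-23.0), and the rest lay between -8.08 and -2.07. The 2 highest are left out below as a second pair, though their RMS difference (0.512) ranked only 5 of 28. That of shScr replicate 1 and shEN1 #1 replicate 2 (0.510) ranked 4. All 6 epithelial markers were above 1 CPM on average, led by *KRT8* (6094 to 9573 CPM), which accords with the labelled cell type. The fibroblast genes *COL1A2*, *DCN* and *LUM*, the leukocyte genes *PTPRC* and *CD3E* and the endothelial genes *CDH5* and *KDR* had 0 counts in every library. Other genes of these marker lists were also above 1 CPM on average, namely *CD68* (20.8), *ACTA2* (5.98), *COL1A1* (1.955) and *LYZ* (1.03). The rest, *PDGFRB* (0.0726), *PECAM1* (0.203) and *VWF* (0.265), were below it.

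When expression was set per kilobase of exon so that genes could be compared with each other, the 10 genes spanned from abundant to barely detected. *CCN1* (48.0 ± 17.5 CPM per kb; SD over 8 libraries) and *YAP1* (46.7 ± 6.06) stood highest, and their ranges overlapped. *YAP1* did not overlap with the next gene in order, *TEAD4* (28.95 ± 2.90). From *TEAD4* through *WWTR1* (20.7 ± 4.81), *AMOTL2* (20.5 ± 6.80), *CCN2* (20.2 ± 14.2), *TEAD1* (12.6 ± 1.96) and *AJUBA* (12.5 ± 2.40), each gene overlapped with its neighbour. *LATS2* (4.67 ± 2.05) lay below *AJUBA* in every library, and *ANKRD1* (0.416 ± 0.393) lay below all the others.

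**Figure D1:**
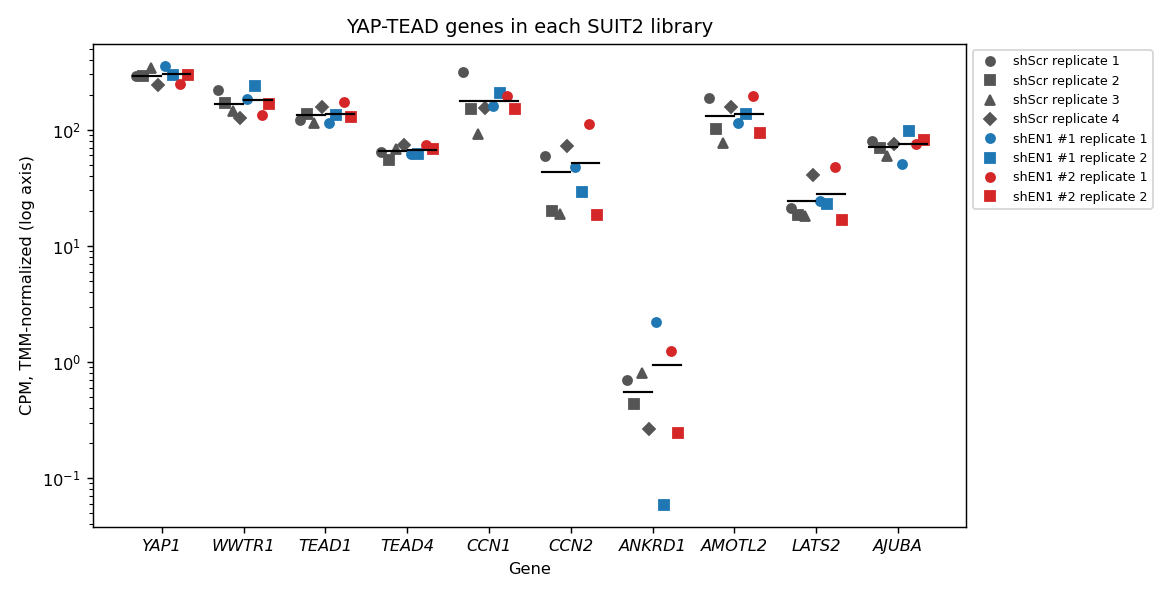
CPM of the 10 YAP-TEAD genes (log axis) in each of the 8 libraries, with colour for the label, symbol for the replicate and black lines for the means of the 4 shScr and 4 shEN1 libraries. *YAP1* stays between 243 and 354 CPM, *CCN2* runs from 18.5 to 112 CPM within the libraries labelled shEN1 #2 alone, and *ANKRD1* lies at or below 2.21 CPM.

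*YAP1* (gene 10413; GRCh37 chromosome 11, 101981178 to 102104155, plus strand), the coactivator that gives the pathway its name, measured 289, 291, 337 and 243 CPM across shScr replicates 1 to 4. Under the shEN1 labels it measured 354 and 295 CPM (#1) and 248 and 298 CPM (#2), in the order of the replicates, which is kept below. The means were 290.1 ± 38.4 CPM for shScr and 299 ± 43.5 CPM for shEN1 (SD, n = 4 each), and the lowest and the highest library of each label bracketed both means. The 2 lowest libraries were those labelled shScr replicate 4 and shEN1 #2 replicate 1, and the 2 highest were those labelled shScr replicate 3 and shEN1 #1 replicate 1.

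*WWTR1* (gene 25937; chromosome 3, 149235022 to 149454501, minus strand), which encodes the second coactivator, measured 220.0, 170.1, 144 and 125 CPM across the shScr replicates. Its values were 186 and 238 CPM with shEN1 #1 and 134 and 168 CPM with shEN1 #2. Its 2 lowest libraries were the same as for *YAP1*, and the labels overlapped over most of their ranges, with means of 165 ± 41.1 CPM for shScr and 181 ± 43.6 CPM for shEN1 (SD, n = 4 each).

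*TEAD1* (gene 7003; chromosome 11, 12695968 to 12966284, plus strand) and *TEAD4* (gene 7004; chromosome 12, 3068496 to 3149842, plus strand) encode DNA-binding partners of both coactivators. *TEAD1* measured 122, 138, 114 and 158 CPM across the shScr replicates, 114 and 134 CPM with shEN1 #1 and 173 and 128 CPM with shEN1 #2. *TEAD4* had 64.6, 54.4, 68.2 and 73.6 CPM for shScr, 61.7 and 61.9 CPM for shEN1 #1 and 73.9 and 68.6 CPM for shEN1 #2. For both genes the 2 highest libraries were those labelled shEN1 #2 replicate 1 and shScr replicate 4, where *YAP1* and *WWTR1* were lowest. The means of the labels were close, at 133 ± 19.5 and 137 ± 25.2 CPM for *TEAD1* and at 65.2 ± 8.12 and 66.5 ± 5.88 CPM for *TEAD4* (shScr and shEN1; SD, n = 4 each).

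Among the targets, *CCN2* and *ANKRD1* varied most, and *LATS2* was highest in the 2 libraries set apart on the first component, and the sequences just upstream of these 3 genes are shown here for that reason. TEAD factors recognise the letters GGAATG, or CATTCC when read on the other strand. The 250 bases before each annotated start were taken from RefSeq (GRCh38.p14) and placed by exact match on GRCh37, where each window was found at a single position. Each is written 5′ to 3′ on the strand of the gene, with each match to either motif in capitals.
CCN2 (chr6:132272513-132272762, minus strand): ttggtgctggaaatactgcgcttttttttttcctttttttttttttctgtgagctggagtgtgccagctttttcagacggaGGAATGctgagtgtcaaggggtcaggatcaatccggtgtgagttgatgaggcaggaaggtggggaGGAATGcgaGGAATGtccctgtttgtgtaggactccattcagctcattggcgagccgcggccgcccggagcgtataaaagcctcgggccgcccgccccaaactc
ANKRD1 (chr10:92680845-92681094, minus strand): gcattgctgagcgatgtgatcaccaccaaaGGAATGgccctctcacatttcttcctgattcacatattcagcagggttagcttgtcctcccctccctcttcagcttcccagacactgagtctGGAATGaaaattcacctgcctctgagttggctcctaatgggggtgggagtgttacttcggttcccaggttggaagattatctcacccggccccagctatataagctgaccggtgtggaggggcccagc
LATS2 (chr13:21635726-21635975, minus strand): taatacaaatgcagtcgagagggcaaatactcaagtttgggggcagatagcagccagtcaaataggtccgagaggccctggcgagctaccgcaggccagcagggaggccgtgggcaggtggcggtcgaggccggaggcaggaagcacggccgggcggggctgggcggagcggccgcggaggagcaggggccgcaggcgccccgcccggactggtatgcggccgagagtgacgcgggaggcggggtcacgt

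The *CCN2* window held 3 matches, whose first bases lay 169, 104 and 95 bases before the start, and the *ANKRD1* window held 2, at 220 and 128 bases before it. The *LATS2* window held none. Of 35116 windows of the same length before the starts of 27305 genes, 11.9% held 1 or more matches, 0.940% held 2 or more and 0.0826% held 3 or more. Windows were found for 7 of the 10 genes, 10 windows in all, and the entries for *TEAD1*, *TEAD4* and *CCN1* were missing. *YAP1* had a match 162 bases before its start, *AMOTL2* and *AJUBA* had 1 each before their second annotated start, in windows that overlap annotated exons, and *WWTR1* had none before either of its starts. A match describes the letters of a window and not a bound site. *CCN2* and *ANKRD1* were chosen by name as targets of TEAD factors, so the matches before them are not an independent result.

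*CCN2* (gene 1490; chromosome 6, 132269316 to 132272512, minus strand), a secreted matricellular protein and a widely used readout of YAP1 activity, measured 59.6, 20.01, 18.7 and 73.0 CPM across the shScr replicates. Its values were 47.4 and 29.1 CPM with shEN1 #1 and 112 and 18.5 CPM with shEN1 #2. The highest and the lowest of the 8 libraries were thus the 2 libraries of shEN1 #2, which differed 6.03-fold. Without the libraries shScr replicate 4 and shEN1 #2 replicate 1, the highest and the lowest of the other 6 differed 3.22-fold. The second highest was the library labelled shScr replicate 4, and the means of 42.8 ± 27.7 CPM for shScr and 51.7 ± 41.8 CPM for shEN1 (SD, n = 4 each) lay well inside the range of each label.

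*CCN1* (gene 3491; chromosome 1, 86046444 to 86050272, plus strand), which encodes a related matricellular protein, measured 313, 150.1, 91.3 and 152 CPM across the shScr replicates. Its values were 161 and 205 CPM with shEN1 #1 and 195 and 150.4 CPM with shEN1 #2. Both extremes were libraries labelled shScr, replicate 1 and replicate 3, and they differed 3.43-fold, while the 4 libraries labelled shEN1 all lay between them. The means were 177 ± 95.3 CPM for shScr and 178 ± 26.4 CPM for shEN1 (SD, n = 4 each).

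*ANKRD1* (gene 27063; chromosome 10, 92671853 to 92680844, minus strand), which encodes a muscle ankyrin repeat protein, was barely detected. Only 23, 16, 28 and 10 reads were counted across the shScr replicates, 79 and 2 with shEN1 #1 and 49 and 8 with shEN1 #2. Its highest and lowest libraries were the 2 of shEN1 #1, with 2.21 and 0.0589 CPM, a ratio of 37.6 with an exact 95% interval of 10.1 to 316 that covers counting error only. The means were 0.549 ± 0.244 CPM for shScr and 0.941 ± 0.995 CPM for shEN1 (SD, n = 4 each), and all 4 shScr libraries lay between the extremes of shEN1. The sequences above held 3 matches to the TEAD motif for *CCN2* and 2 for *ANKRD1*. *CCN2* was highest in shEN1 #2 replicate 1, where *ANKRD1* was second highest (1.245 CPM, 49 reads), and *ANKRD1* was highest in shEN1 #1 replicate 1. A link between the matches and these levels was not tested.

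Of the targets that feed back on the pathway, *AMOTL2* (gene 51421; chromosome 3, 134074189 to 134094321, minus strand) encodes an angiomotin family protein that binds YAP1. It measured 187, 102, 76.2 and 157 CPM across the shScr replicates, 114 and 137 CPM with shEN1 #1 and 196 and 93.9 CPM with shEN1 #2. *LATS2* (gene 26524; chromosome 13, 21547175 to 21635725, minus strand) encodes a kinase that phosphorylates YAP1 and WWTR1. It had 21.3, 18.3, 18.1 and 40.4 CPM for shScr, 24.1 and 22.9 CPM for shEN1 #1 and 47.8 and 16.8 CPM for shEN1 #2. The 2 libraries above 40 CPM for *LATS2* were those labelled shScr replicate 4 and shEN1 #2 replicate 1, and the other 6 lay at or below 24.1 CPM. The means were 130.5 ± 50.5 and 135 ± 44.3 CPM for *AMOTL2* and 24.5 ± 10.7 and 27.9 ± 13.7 CPM for *LATS2* (shScr and shEN1; SD, n = 4 each).

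*AJUBA* (gene 84962; chromosome 14, 23440386 to 23451760, minus strand) encodes a LIM domain protein that binds and restrains LATS kinases. It measured 79.8, 70.1, 58.9 and 76.0 CPM across the shScr replicates, 50.6 and 96.8 CPM with shEN1 #1 and 75.5 and 80.9 CPM with shEN1 #2. The 2 libraries of shEN1 #1 were its lowest and its highest. Its mean was 71.2 ± 9.13 CPM for shScr and 76.0 ± 19.2 CPM for shEN1 (SD, n = 4 each).

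To compare this spread with that of other genes, the range of log2 CPM over the 8 libraries (computed with a prior count of 2) was set against the ranges of all 14333 tested genes. The median range was 0.76 for all genes and 1.15 for the 10 YAP-TEAD genes. The 4 factors had a median of 0.57, and none of them had a range over 1, while the 6 targets had a median of 1.64 and 5 of them had a range over 1. Among all tested genes 35.4% had a range over 1. *TEAD4* was the steadiest, with a range of 0.44, and 17.8% of tested genes had a smaller range. *YAP1* (0.54, 29.3%), *TEAD1* (0.60, 36.1%) and *WWTR1* (0.93, 60.9%) followed. *AJUBA* (0.94, 61.4%) was next to *WWTR1*, and then came *AMOTL2* (1.37, 76.6%), *LATS2* (1.503, 79.8%), *CCN1* (1.78, 84.9%), *CCN2* (2.59, 93.3%) and *ANKRD1* (4.30, 99.1%), whose counts are low. These 4 and 6 genes were not tested against each other. Single libraries and pairs moved some of these ranges. The range of *CCN1* was 1.06 without shScr replicate 3 and 1.17 without shScr replicate 1, that of *TEAD4* was 0.26 without shScr replicate 2, and without shEN1 #1 replicate 2 *ANKRD1* had 2.94 and *AJUBA* 0.64. Without the pair shScr replicate 4 and shEN1 #2 replicate 1, *LATS2* had 0.52, *YAP1* 0.29 and *TEAD1* 0.28. Without the pair shScr replicate 3 and shEN1 #1 replicate 1, *YAP1* had 0.29 and *AJUBA* 0.47. With both pairs left out, the median range of the 10 genes over the remaining 4 libraries was 0.49. A range over 4 libraries tends to be narrower than one over 8 for any gene. The median of all tested genes over these 4 libraries was not taken, so 0.49 is not comparable with 0.76.

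**Figure D2:**
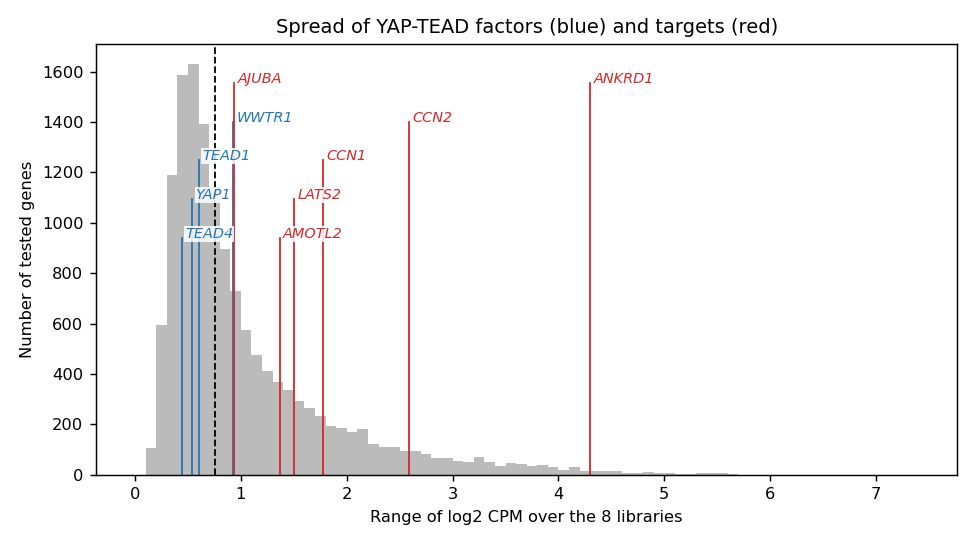
Histogram of the range of log2 CPM over the 8 libraries for the 14333 tested genes, with the 4 factors (blue lines), the 6 targets (red lines) and the median of all genes (dashed line, 0.76). The factors lie at or below 0.93, and 5 of the targets lie above 1.

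The targets lay on the same side of their means in some libraries and not in others. On the scale of log2 CPM minus each gene's mean, the library labelled shEN1 #2 replicate 1 was high for *CCN2* (1.54), *ANKRD1* (1.202), *LATS2* (0.97) and *AMOTL2* (0.63) and closer to the mean for *CCN1* (0.21) and *AJUBA* (0.06). In the library labelled shScr replicate 4, *CCN2* (0.93) and *LATS2* (0.72) were high and *ANKRD1* (-0.81) was low. The library labelled shScr replicate 3 was low for *CCN2* (-1.04), *CCN1* (-0.88), *AMOTL2* (-0.73), *LATS2* (-0.43) and *AJUBA* (-0.297). It was above the mean for *ANKRD1* (0.60), which had only 28 reads there. In the library labelled shScr replicate 2 every target lay below its mean, from *CCN2* (-0.935) to *AJUBA* (-0.045). In the library labelled shEN1 #1 replicate 2, *AJUBA* (0.42), *CCN1* (0.289) and *AMOTL2* (0.115) lay above. *CCN2* (-0.398), *LATS2* (-0.094) and the low-count *ANKRD1* (-2.295) lay below there.

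**Figure D3:**
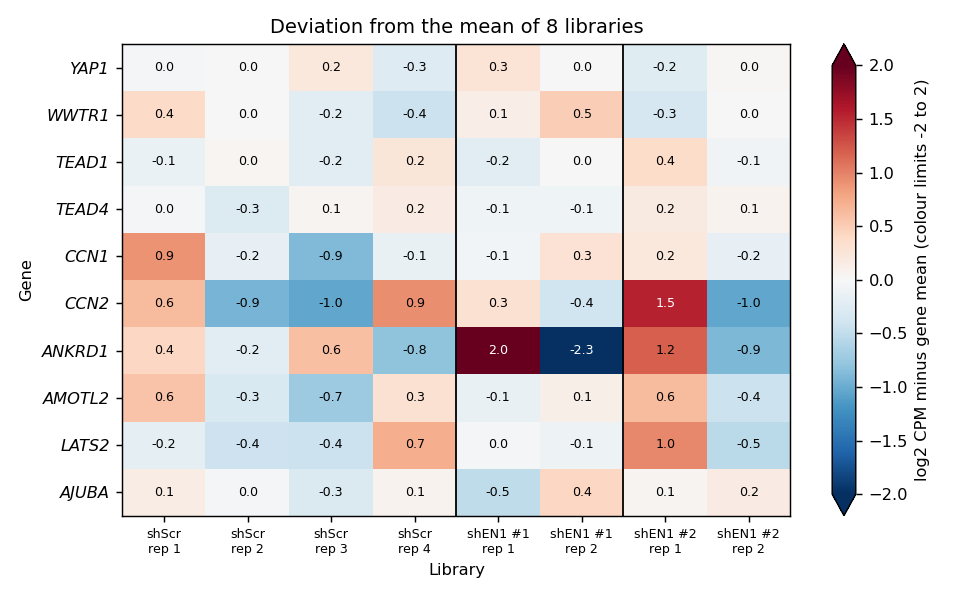
Difference of log2 CPM from the mean of the 8 libraries for each gene (rows) and library (columns, grouped by label), with red above and blue below the mean and colours limited to -2 and 2. *CCN2* and *LATS2* are red in the columns shScr replicate 4 and shEN1 #2 replicate 1, where *YAP1* and *WWTR1* are pale blue, and *ANKRD1* has its extremes in the 2 columns of shEN1 #1.

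The libraries of the first pair, shScr replicate 4 and shEN1 #2 replicate 1, were the 2 highest for *TEAD1*, *TEAD4*, *LATS2* and *CCN2*, 4 of the 10 genes, and for 18.9% of all tested genes. They were the 2 lowest for *YAP1* and *WWTR1*, 2 of the 10, and for 19.2% of all tested genes. The other pair, shScr replicate 3 and shEN1 #1 replicate 1, were the 2 highest for *YAP1* (7.05% of all genes) and the 2 lowest for *TEAD1* and *AJUBA* (6.83%). For 4 of the 6 epithelial markers (*KRT7*, *KRT19*, *EPCAM* and *CDH1*), the 2 lowest libraries were also shScr replicate 4 and shEN1 #2 replicate 1, whereas *KRT8* and *KRT18* were lowest in shEN1 #1 replicate 1 and shScr replicate 3. *KRT7*, for example, had 198 and 192 CPM in the pair shScr replicate 4 and shEN1 #2 replicate 1. It had between 534 and 1080 CPM in the other 6 libraries. The 6 markers summed to 11698 and 11442 CPM in this pair and to between 11678 and 18546 CPM in the other 6 libraries. The fibroblast markers summed to 17.2 and 15.4 CPM in the pair, mostly through *ACTA2* (15.5 and 13.4 CPM), and to between 3.35 and 8.21 CPM in the others. The immune markers summed to 8.76 and 8.15 CPM in the pair, mostly through *CD68* (8.38 and 7.75 CPM), and to between 19.9 and 35.3 CPM in the others. The endothelial markers lay at or below 0.676 CPM everywhere. The part of these markers in the levels of *LATS2*, *CCN2* and the other YAP-TEAD genes in the pair was not tested.

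Likeness of 2 genes was measured as the RMS difference between their log2 CPM, each set to a mean of 0 over the 8 libraries, so that a smaller value means a closer pattern. It is a description over libraries of which some lie close together, and steady genes come close to each other for that reason alone. Of the 45 pairs among the 10 genes, *TEAD1* and *TEAD4* were closest (0.19). The coactivators *YAP1* and *WWTR1* lay 0.28 apart, and so did *CCN1* and *AMOTL2* (0.28), whereas *CCN1* and *CCN2*, both matricellular genes, lay 0.79 apart. *ANKRD1* was at least 1.22 from each of the others. Over all tested genes outside the lists, the gene nearest to *CCN2* was *HBEGF* (0.18), which encodes a ligand of the EGF receptor and ran from 11.9 to 61.7 CPM. It was followed by *FRS3* (0.40), an adaptor of FGF receptors, and *NXNL2* (0.44), and all 3 were highest in the library labelled shEN1 #2 replicate 1, as *CCN2* was. The genes nearest to *ANKRD1* were *ZNF565* (0.71), *ZNF470* (0.73) and *HOXC6* (0.74), of which *ZNF565* and *ZNF470* had as little as 0.118 CPM.

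The comparison of the labels asked whether YAP-TEAD genes differ between cells with an *EN1* shRNA and cells with the scramble shRNA. With edgeR's quasi-likelihood test and Benjamini-Hochberg adjustment over all 14333 genes, 0 of the 10 genes passed an adjusted p of 0.05, and neither did any other gene (0% called). An unadjusted p below 0.05 was found for 44 genes (0.307%), 0 of the 10 among them. DESeq2 called 2 genes and limma-voom 0, again with 0 of the 10 among them. For each of the 10 genes the range of log2 CPM within a label exceeded the difference between the label means, as it did for 14318 of the 14333 genes. The 4 libraries labelled shEN1 did not lie wholly above or below the 4 labelled shScr for any of the 10 genes, and did so for 0.419% of all tested genes.

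The log2 fold change (shEN1 against shScr) was 0.042 for *YAP1* (standard error 0.14, 95% interval -0.27 to 0.35) and 0.14 for *WWTR1* (standard error 0.21, -0.32 to 0.60), each with an adjusted p of 1.00 from edgeR. It was 0.046 for *TEAD1* (standard error 0.15) and 0.029 for *TEAD4* (standard error 0.12). Over the 4 factors the intervals ran from 0.799-fold to 1.51-fold.

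Among the targets, the log2 fold change was 0.27 for *CCN2* (standard error 0.62, 95% interval -1.12 to 1.66), 0.009 for *CCN1* (standard error 0.32, -0.71 to 0.73) and 0.19 for *LATS2* (standard error 0.36, -0.62 to 1.00), each with an adjusted p of 1.00 from edgeR. *AMOTL2* (0.053, standard error 0.31) and *AJUBA* (0.093, standard error 0.19) had smaller standard errors than *CCN2* and *CCN1*, and that of *AJUBA* was below that of the factor *WWTR1*. Without *ANKRD1*, the intervals of the targets ran from 0.460-fold to 3.17-fold, and a 2-fold difference in *CCN2* lies within its own interval. *ANKRD1* had a log2 fold change of 0.78 (standard error 0.85, -1.12 to 2.68, adjusted p of 1.00 from edgeR), and limma-voom gave -0.036.

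All 10 fitted fold changes lay above 0, against 48.9% of all tested genes (median -0.0028), but the direction of each depended on single libraries. Each of the 10 genes changed direction in at least 1 of the 8 fits that left out 1 library. Without the library labelled shEN1 #2 replicate 1, 6 genes turned: *CCN2* (-0.43), *LATS2* (-0.20), *AMOTL2* (-0.18), *TEAD1* (-0.087), *CCN1* (-0.040) and *TEAD4* (-0.028). Without shEN1 #1 replicate 1, *ANKRD1* (-0.070) and *YAP1* (-0.050) turned, and without shEN1 #1 replicate 2, *CCN1* (-0.068), *AJUBA* (-0.049) and *WWTR1* (-0.023) did. Leaving out shScr replicate 3 turned *CCN1* (-0.21), *AMOTL2* (-0.13) and *TEAD1* (-0.022), leaving out shScr replicate 2 turned *CCN1* (-0.062), *TEAD4* (-0.049) and *AMOTL2* (-0.048), and leaving out shScr replicate 4 turned *CCN1* (-0.056) and *YAP1* (-0.033). Without the pair shScr replicate 4 and shEN1 #2 replicate 1, *CCN1* (-0.10), *AMOTL2* (-0.085) and *CCN2* (-0.049) lay below 0. Without both pairs *ANKRD1* (-1.87), *CCN2* (-0.74), *CCN1* (-0.38) and *AMOTL2* (-0.33) lay below 0 and 0 of the 10 genes were called by edgeR. In that fit 1512 of 14273 tested genes had an unadjusted p below 0.05 from edgeR, against 44 of 14333 with all libraries. The 10 genes held 0 of these 1512, which with so few genes does not set them apart from all tested genes.

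**Figure D4:**
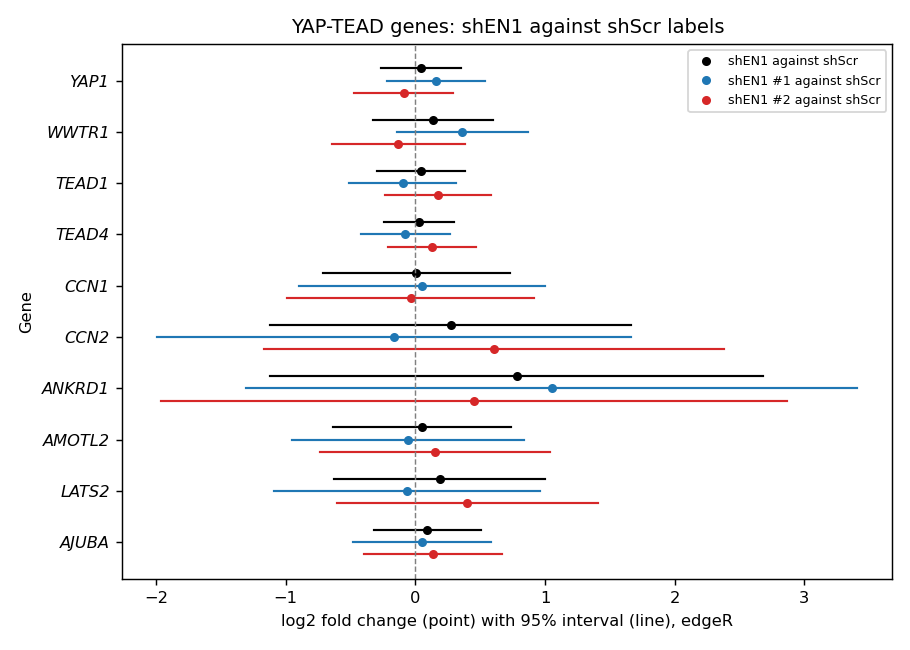
Log2 fold change with its 95% interval (edgeR) for both constructs together (black), shEN1 #1 (blue) and shEN1 #2 (red) against the same 4 libraries labelled shScr, with a dashed line at 0. Every interval includes 0, and those of *CCN2* and *ANKRD1* are the widest.

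A fit with 3 groups set each construct against the shScr libraries, and both comparisons share these 4 controls. For shEN1 #1, edgeR called 0 genes (94 at an unadjusted p below 0.05, 0.656%), DESeq2 3 and limma-voom 0, with 0 of the 10 in each. For shEN1 #2, edgeR, DESeq2 and limma-voom called 0 genes (43 at an unadjusted p below 0.05 in edgeR, 0.300%; 0 of the 10). For shEN1 #1, 5 of the 10 genes had a fold change above 0 (48.3% of all genes), and for shEN1 #2 it was 7 (48.1%). In 0 of the 10 genes did the 2 libraries of shEN1 #1 lie wholly outside the range of shScr (5.16% of all genes), and likewise 0 for shEN1 #2 (4.02%). The log2 fold changes of *WWTR1* were 0.36 (standard error 0.23) for shEN1 #1 and -0.13 (standard error 0.23) for shEN1 #2, and those of *YAP1* were 0.16 and -0.087. *CCN2* had -0.16 (standard error 0.79) for shEN1 #1 and 0.61 (standard error 0.77) for shEN1 #2, but without the library labelled shEN1 #2 replicate 1 the second value was -1.22. *ANKRD1* had 1.05 (standard error 1.05) and 0.45 (standard error 1.07), and without the library labelled shEN1 #1 replicate 1 the first was -3.14. *LATS2* had -0.062 and 0.40, and without shEN1 #2 replicate 1 the latter was -0.56.

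The constructs were also compared with each other, which tests their difference itself. Here edgeR called 0 genes (153 at an unadjusted p below 0.05, 1.07%), DESeq2 0 and limma-voom 0, with 0 of the 10 in each. Among the 10 genes *WWTR1* had the smallest unadjusted p, 0.094 from edgeR (adjusted p of 1.00). Of the 10, 6 had a fold change above 0 for shEN1 #2 against shEN1 #1 (50.3% of all genes). The 2 libraries of each construct did not overlap for *WWTR1* (186 and 238 against 134 and 168 CPM) and for *TEAD4* (61.7 and 61.9 against 73.9 and 68.6 CPM), 2 of the 10 genes, and did not overlap for 25.5% of all tested genes.

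The other genes of the pathway gave the same count of calls. In the core kinase cassette (MST, LATS, MOB1 and related kinases and adaptors), 12 of 12 genes were tested by edgeR and 0 passed in either direction for both constructs together. Of these, 8 had a log2 fold change above 0 and 4 below (median 0.052), where 48.9% of all tested genes lay above 0. The median range over libraries, 0.66, was below that of all tested genes. The members with the widest ranges were *MAP4K4* (log2 fold change 0.086, standard error 0.20) and *TAOK1* (0.066, standard error 0.21), kinases that act on LATS or upstream of it. *LATS1*, the paralog of *LATS2*, had 0.19 (standard error 0.15).

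Of the upstream scaffolds and regulators (such as *NF2*, the angiomotins and the FAT cadherins), 16 of 16 were tested and 0 passed. For both constructs together 14 lay above 0 and 2 below (median 0.060), where 48.9% of all tested genes lay above 0. For shEN1 #1 the count was 8 and 8, with 1 gene at an unadjusted p below 0.05 (48.3% of all genes above 0), and for shEN1 #2 it was 15 and 1 (median 0.094, 48.1% of all genes above 0). The 2 libraries of shEN1 #2 differed in some of these genes, in *PTPN14* (186 and 103 CPM) and, the other way, in *WWC1* (123 and 210 CPM). The counts of directions were not recomputed without single libraries, so how far they rest on 1 library is not known. *WTIP*, a LIM domain relative of *AJUBA*, ran from 1.82 to 13.6 CPM, and *FAT4*, an atypical cadherin, from 11.2 to 59.4 CPM. Both were highest in shScr replicate 4 and shEN1 #2 replicate 1. In the other 6 libraries *WTIP* reached 3.13 CPM, a 1.72-fold range in place of 7.47-fold, and *FAT4* reached 25.2 CPM, a 2.25-fold range in place of 5.30-fold. These genes were named for their wide ranges and the pair holds their highest values, so the narrower ranges follow from that choice.

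Of the other TEAD genes and the VGLL cofactors, which bind TEADs in place of YAP1, 5 of 6 were tested and 0 passed, with 2 above 0 and 3 below (median -0.072). *VGLL2* had 0 counts in every library. *TEAD2* ran from 4.74 to 18.9 CPM and *VGLL3* from 12.2 to 41.4 CPM. *TEAD2* was highest in shScr replicate 3 (18.9 CPM) and shEN1 #1 replicate 1 (17.6 CPM), and without them its range fell from 3.998-fold to 1.81-fold. Without shScr replicate 4 and shEN1 #2 replicate 1 the range of *VGLL3* fell from 3.40-fold to 1.99-fold. Both genes were named for their wide ranges, and each left-out pair holds an extreme, so the narrower ranges follow from that choice. The share of all tested genes that narrow likewise was not taken. In a wider list of 17 YAP-TEAD targets, 16 were tested and 0 passed. Of these, 13 lay above 0 and 3 below (median 0.065), where 48.9% of all tested genes lay above 0. The median range of the tested targets was 1.04. The widest of them were *RBMS3* (0 to 0.838 CPM, 0 to 33 reads) and *CCDC80* (0.422 to 4.45 CPM, 14 to 170 reads), both low. Both were higher in the 4 libraries of the 2 pairs than in the other 4, where *CCDC80* reached 0.647 CPM. *RBMS3* had 14 to 33 reads in the 4 libraries of the pairs and 0 to 2 in the other 4. It passed the filter on low counts only through the libraries where it was high, so its split follows from the filter. The pairs were drawn from these same data, and the share of all tested genes that split this way was not taken. *PTPN14* is in both the regulator and the wider target list. In these 4 lists, as among the 10 genes, 0 genes passed for either construct alone. The counts of directions in these 4 lists were not recomputed without single libraries, unlike those of the 10 genes.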

How the data were processed

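The 8 RNA-seq libraries of SUIT2 cells were grouped by label (in shEN1 titles, construct then replicate). The deposited values are raw read counts, which the authors made with HISAT2 and featureCounts on hg19 (GRCh37) per the methods. The labels list a mouse build as well. The annotation, strand setting and versions are not given in the sources used here, so reads of overlapping or antisense genes could be shared. Of 25702 identifiers, 23696 matched a RefSeq symbol, and the other 2006 held 0.214% to 0.257% of a library's counts. Positions and exon lengths came from GENCODE on GRCh37.

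Genes were filtered with filterByExpr (minimum count 10), normalized with TMM and tested with edgeR 4.0.16 (glmQLFit robust, glmQLFTest) in R 4.3.3 over all genes, pooled and per construct, with Benjamini-Hochberg adjustment. Standard errors are the log2 fold change over the square root of F. Intervals are at 95%. The scripts were tested on simulated data. The libraries held 33423590 to 37810604 counts. Of the 10 genes *ANKRD1* had the fewest, 2 to 79 per library, and *EN1* had 53 to 218, *RBMS3* 0 to 33 and *CCDC80* 14 to 170. The alternatives were DESeq2 1.42.0, limma-voom (limma 3.58.1), other scalings and filters, a replicate block, and leaving out single libraries or pairs. CPM ranges without the pairs were added after the values were seen. The members and lists were chosen with earlier results of these data known. The genes named are the 10 genes, *EN1*, the 2 genes of each list with the widest range and, for the 2 most variable members, the 3 genes nearest in pattern. *LATS1*, *KRT8*, *KRT18*, *EPCAM*, *CDH1*, *PDGFRB*, *PECAM1* and the markers at 0 were named after their values were seen.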

Additional observations from a re-analysis of the deposited data

Results flagged for a closer look

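In the 4 libraries labelled shScr, *LATS2* stood at 40.4 CPM in replicate 4 and between 18.1 and 21.3 CPM in the others. The gap to the nearest library was 0.857 of the range of the 4, above Dixon's 95% critical value of 0.829. Among the 4 libraries labelled shEN1, shEN1 #2 replicate 1 had a TMM factor of 1.07, a gap of 0.928 of the range. These were 2 of 26 groups of 4 values looked at, where chance gives about 1.3. The 2 libraries concerned are the pair that lay together on the first principal component. Without this pair the range of *LATS2* over the libraries was 0.52 in log2 CPM, against 1.503 with it. The cause was not tested.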

How the results depend on the processing

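Of 537 recomputed log2 fold changes of the 10 genes against shScr, 460 kept their direction and 77 turned it, and in all 71 recomputed counts 0 of the 10 genes were called. The DEG count for shEN1 against shScr was 2 with DESeq2, 1 with the replicate block, 1 without both pairs and 0 to 1 with libraries left out; for shEN1 #1 it was 3 with DESeq2, 1 with no filter and 0 to 2 with libraries left out. The labels do not say whether libraries are paired by replicate number. Deviations of same-numbered libraries from their group means had correlations from -0.33 to 0.44. The 2 libraries of a construct mirror each other in this measure, so it cannot decide whether they are paired. With the replicate block, which uses the 6 libraries that share a number, *CCN1* (-0.32), *WWTR1* (-0.12), *ANKRD1* (-0.076), *AMOTL2* (-0.052) and *AJUBA* (-0.012) turned. Without both pairs, *ANKRD1* (-1.87), *CCN2* (-0.74), *CCN1* (-0.38) and *AMOTL2* (-0.33) turned. The median range of the 10 genes was then 0.49 over 4 libraries, where ranges tend to be narrower for any gene. Library size only turned *CCN1* for shEN1 #2 (0.017). Limma-voom turned *ANKRD1* (-0.036) for both constructs together, *CCN1* for shEN1 #2 (0.098), and for shEN1 #1 *ANKRD1* (-0.31), *CCN2* (0.060), *AMOTL2* (0.025), *LATS2* (0.020) and *AJUBA* (-0.017). With 1 library or 1 pair left out, the log2 fold change of shEN1 against shScr ran from -0.050 to 0.12 for *YAP1*, -0.023 to 0.31 for *WWTR1*, -0.087 to 0.14 for *TEAD1*, -0.049 to 0.092 for *TEAD4*, -0.21 to 0.44 for *CCN1*, -0.43 to 0.66 for *CCN2*, -0.070 to 1.18 for *ANKRD1*, -0.18 to 0.28 for *AMOTL2*, -0.20 to 0.54 for *LATS2* and -0.049 to 0.25 for *AJUBA*. For shEN1 #1 it ran from -0.21 to 0.016 for *TEAD1*, -0.16 to 0.48 for *CCN1*, -0.81 to 0.22 for *CCN2*, -3.14 to 2.03 for *ANKRD1*, -0.24 to 0.17 for *AMOTL2*, -0.22 to 0.29 for *LATS2* and -0.48 to 0.44 for *AJUBA*. For shEN1 #2 it ran from -0.23 to 0.026 for *YAP1*, -0.30 to 0.041 for *WWTR1*, -0.071 to 0.38 for *TEAD1*, -0.30 to 0.40 for *CCN1*, -1.22 to 1.38 for *CCN2*, -1.38 to 1.18 for *ANKRD1*, -0.49 to 0.59 for *AMOTL2* and -0.56 to 0.96 for *LATS2*. For each of these the cause was not tested. Fits that leave 1 library of a construct assume that it varies like the other groups. With at least 10 counts required in every library, *ANKRD1* was not tested. Counts were lowest for *ANKRD1*, at 2 to 79 per library.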
